A study of Mus musculus with 33 samples.

Results

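The expression of 10 genes of the fibroblast growth factor (FGF) to ERK pathway was followed through embryoid body (EB) differentiation, namely of the ligands *Fgf4*, *Fgf8* and *Fgf17*, the receptors *Fgfr1* and *Fgfr2*, the feedback inhibitors *Spry2*, *Spry4* and *Dusp6*, and the ETS transcription factors *Etv4* and *Etv5*. They were taken by gene symbol, and all 10 were found among the 16336 genes of the table. RNA was sequenced from E14Tg2a, a wild-type mouse embryonic stem (ES) cell line of the 129/Ola strain, and from ΔK9.1 and ΔK9.2, 2 E14Tg2a derivatives in which the H3K9me3-marked stretch of DNA between the enhancer and the promoter of *Nanog* was deleted on both alleles. Undifferentiated cells (day 0) grew on gelatine in DMEM with serum (FCS) and LIF, and EB differentiation was followed on days 4, 6 and 8. By the study's methods, aggregates formed while LIF was still present, spent 4 days in suspension without it, and were then replated sparsely on gelatine for another 2 or 4 days, so that day 4 is of floating EBs and days 6 and 8 are of attached outgrowths. What follows from the change of culture and what follows from time cannot be told apart between day 4 and the later days. Each line had 3 libraries on days 0, 4 and 8 and 2 libraries (replicates 2 and 3) on day 6, 33 in all. Each ΔK9 line is 1 clone, so that what is particular to a clone and what follows from the deletion cannot be told apart within 1 line.

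FGF ligands bind receptor tyrosine kinases at the cell surface and, through RAS and the RAF and MEK kinases, activate ERK. Active ERK raises the transcription of *Etv4*, *Etv5*, *Spry* and *Dusp6*, and the SPRY and DUSP6 proteins dampen the same cascade, so these genes are widely used as a readout of its activity. In ES cells autocrine FGF4 is the main driver of ERK and readies cells for differentiation, and in the early embryo FGF signalling directs cells to the primitive endoderm, whose precursors carry FGFR2.

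Values are TPM, transcript abundances scaled for transcript length and library total, which can be compared between genes, and every log2 fold change was computed on log2(TPM + 1), a scale that understates changes of low genes. A gene is said to rise or fall, or to be higher or lower, only where the adjusted p from limma (Benjamini-Hochberg over all genes tested) was under 0.05. *Nanog* itself was higher in the ΔK9 clones on day 0 by 0.38 and on day 8 by 1.79 on the log2 scale. In undifferentiated cells the summed TPM of 10 extra-embryonic endoderm markers was 115 in E14Tg2a replicate 1 and 55.0 in ΔK9.2 replicate 1, against 3.88 to 11.3 in the other 7 libraries. Results that rest on those 2 libraries are given with and without them. In RNA from whole cultures, fewer cells of a type and less RNA per cell cannot be told apart.

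Promoters were looked up because ETS factors bind the core GGAA, and because 7 of the 10 genes were higher in the clones on day 8. Windows were found for *Fgf4*, *Fgfr2*, *Spry2*, *Dusp6* and *Etv5*. The 250 bases before the start of *Dusp6*, the gene with the clearest difference, and before both listed starts of *Etv5* are shown as the sequence of the gene's own strand (RefSeq, GRCm38.p6, a C57BL/6J reference, while the cells are 129/Ola). Capitals mark each GGAA or, where the core lies on the opposite strand, TTCC.
Dusp6, chr10:99262981-99263230, plus strand: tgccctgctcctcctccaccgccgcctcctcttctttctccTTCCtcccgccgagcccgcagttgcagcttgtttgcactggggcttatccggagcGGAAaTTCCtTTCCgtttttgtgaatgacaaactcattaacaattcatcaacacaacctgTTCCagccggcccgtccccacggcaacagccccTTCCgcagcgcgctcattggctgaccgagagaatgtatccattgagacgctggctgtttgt
Etv5, upstream start, chr16:22439571-22439820, minus strand: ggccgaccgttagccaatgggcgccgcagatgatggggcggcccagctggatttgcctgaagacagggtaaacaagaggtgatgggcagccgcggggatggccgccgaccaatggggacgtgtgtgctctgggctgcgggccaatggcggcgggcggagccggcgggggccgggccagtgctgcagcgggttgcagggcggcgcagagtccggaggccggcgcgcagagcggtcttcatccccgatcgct
Etv5, downstream start, chr16:22438369-22438618, minus strand: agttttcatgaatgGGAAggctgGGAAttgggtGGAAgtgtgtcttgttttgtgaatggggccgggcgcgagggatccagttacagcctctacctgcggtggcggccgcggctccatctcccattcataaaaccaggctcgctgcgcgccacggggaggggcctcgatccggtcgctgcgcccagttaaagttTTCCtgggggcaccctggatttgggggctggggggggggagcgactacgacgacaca
The *Dusp6* window holds 6 cores, the first 209 bases and the last 61 bases before the start. The windows of *Etv5* hold 0 and 4, those of *Spry2* and *Fgfr2* hold 3 and 2, and that of *Fgf4* holds 0. A GGAA core is present in 93.4% of all 32851 promoters in the table over the same 250 bases, so these matches are a description only. The longer ETS motif CCGGAAG, on either strand, is in 6.91% of them and in none of these windows.

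**Figure D1:**
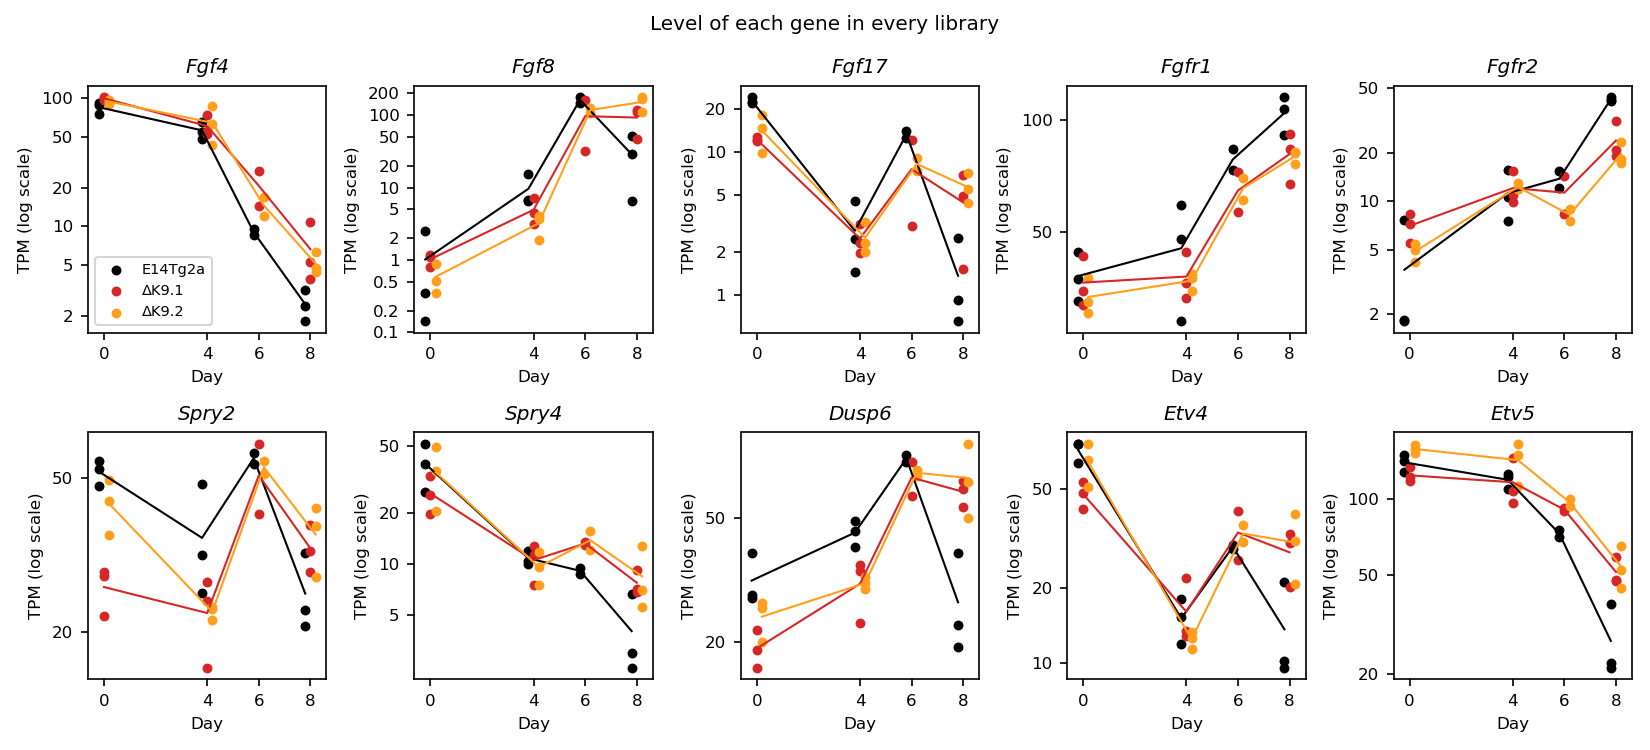
TPM of the 10 genes (log axis) against the day of EB differentiation. Points are libraries, lines join the means of E14Tg2a (black), ΔK9.1 (red) and ΔK9.2 (orange). On day 8 every ΔK9 library lies above every E14Tg2a library for Fgf4, Dusp6 and Etv5 and below it for Fgfr2.

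During differentiation of E14Tg2a the 10 genes followed different courses. By day 8, 3 had risen (*Fgf8*, *Fgfr1* and *Fgfr2*) and 6 had fallen (*Fgf4*, *Fgf17*, *Spry2*, *Spry4*, *Etv4* and *Etv5*), beside 32.1% of all 16336 genes that rose and 26.2% that fell. On day 4 the counts were 2 and 4 (background 10.4% and 15.9%), and on day 6 they were 4 and 4 (19.6% and 20.0%). The median log2 fold change of the 10 genes from day 0 to day 8 was -1.70.

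*Fgf4*, the ligand that ES cells themselves secrete, was the most reduced. Its level in the E14Tg2a libraries was 75.4, 90.9 and 87.8 TPM on day 0, 65.4, 54.3 and 48.0 TPM on day 4, 8.51 and 9.55 TPM on day 6 and 2.41, 3.20 and 1.82 TPM on day 8. Libraries of neighbouring days did not overlap, and the log2 fold change to day 8 was -4.64 (SE 0.26, adjusted p = 5.61e-13).

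*Fgf8*, a ligand of the primitive streak and early mesoderm, ran the other way and was transient. It was low on day 0, at 2.55, 0.353 and 0.142 TPM, and reached 6.63, 15.6 and 6.68 TPM on day 4 and 148 and 177 TPM on day 6. On day 8 it was back at 51.5, 6.56 and 28.7 TPM, below both day 6 libraries, with a wide spread in which replicate 2 was lowest. The log2 fold change was 6.53 (SE 0.63, adjusted p = 1.52e-08) to day 6 and -2.84 (SE 0.63, adjusted p = 0.00179) from day 6 to day 8. The summed TPM of 8 primitive streak and mesoderm markers went over the same interval from 3.98 to 9.999 TPM on day 0 to 592 to 705 TPM on day 6, and its part in the rise of *Fgf8* was not tested.

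*Fgf17*, a ligand of the same subfamily as *Fgf8*, fell, rose and fell again. It stood at 22.3, 24.0 and 21.8 TPM on day 0, 2.46, 4.53 and 1.44 TPM on day 4, 13.9 and 12.5 TPM on day 6 and 2.51, 0.656 and 0.923 TPM on day 8. The rise from day 4 to day 6 was 1.98 (SE 0.42, adjusted p = 0.00142) and the change from day 6 to day 8 was -2.67 (SE 0.42, adjusted p = 9.64e-05). From day 4 to day 6, 6 of the 10 genes rose (*Fgf8*, *Fgf17*, *Fgfr1*, *Spry2*, *Dusp6* and *Etv4*) and 2 fell (*Fgf4* and *Etv5*), beside 14.4% and 10.2% of all genes.

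Both receptors rose. *Fgfr1*, the main FGF receptor of the epiblast, went from 32.7, 44.1 and 37.4 TPM on day 0 to 83.4 and 73.4 TPM on day 6 and 91.0, 115 and 107 TPM on day 8, a log2 fold change of 1.44 (SE 0.18, adjusted p = 2.5e-07). *Fgfr2* was at 7.63, 1.84 and 1.80 TPM on day 0, 15.6, 7.50 and 10.6 TPM on day 4, 15.5 and 12.04 TPM on day 6 and 41.9, 42.6 and 44.1 TPM on day 8. Of the 10 genes it alone rose between days 6 and 8 (log2 fold change 1.58, SE 0.34, adjusted p = 0.00149), while *Fgfr1* at 0.41 did not pass (adjusted p = 0.146) except with the replicate number as a block (0.48, adjusted p = 0.0241). The day 0 library with 7.63 TPM is the one with the extra-embryonic endoderm markers, and in the same days the summed level of those markers went from 146 to 257 TPM on day 6 to 381 to 502 TPM on day 8. On day 4 they had summed to 84.6 to 681 TPM. Their part in the level of *Fgfr2* was not tested.

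Feedback inhibitors did not share 1 course. *Spry4* fell early and stayed low, from 51.7, 39.3 and 26.8 TPM on day 0 to 10.4, 11.98 and 10.02 TPM on day 4 and 6.62, 2.42 and 2.95 TPM on day 8 (log2 fold change to day 8 -3.05, SE 0.31, adjusted p = 7.48e-09). *Spry2* dipped on day 4 to 25.2, 48.2 and 31.5 TPM, was at 54.2 and 57.8 TPM on day 6, next to 52.6, 55.2 and 47.7 TPM on day 0, and ended at 22.8, 20.7 and 31.97 TPM. Its early fall is small (-0.60, SE 0.21, adjusted p = 0.036) and was lost without the 2 day 0 libraries named above (adjusted p = 0.0818), with median-ratio rescaling (0.0589) and with the libraries of E14Tg2a alone (0.0861), as well as without any 1 of the 6 libraries other than replicate 2 of day 4 (up to 0.215).

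*Dusp6*, the phosphatase that removes the activating phosphates of ERK, peaked on day 6. It was at 27.7, 38.7 and 28.3 TPM on day 0, 40.4, 49.1 and 45.5 TPM on day 4, 76.2 and 79.9 TPM on day 6 and 38.6, 19.3 and 22.8 TPM on day 8. Day 6 lay above all other libraries, while days 0 and 8 overlapped. The log2 fold change was 1.30 (SE 0.23, adjusted p = 7.86e-05) to day 6 and -1.57 (SE 0.23, adjusted p = 5.19e-05) from day 6 to day 8, and the net change from day 0 to day 8 did not pass (-0.27, SE 0.21, adjusted p = 0.273), though without replicate 1 of day 8 it was -0.55 (adjusted p = 0.01998).

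The ETS factors fell, each at its own time. *Etv4* dropped by day 4, from 75.9, 63.9 and 76.1 TPM to 18.1, 15.4 and 11.9 TPM (log2 fold change -2.19, SE 0.26, adjusted p = 1.08e-06), rose to 29.8 and 28.8 TPM on day 6 and ended at 21.3, 10.2 and 9.55 TPM. *Etv5*, the most abundant of the 10 genes on day 0, was still at 123, 126 and 110.0 TPM on day 4 against 150.2, 142 and 128 TPM on day 0, a change that did not pass (adjusted p = 0.365). It then fell to 70.4 and 75.4 TPM on day 6 and 38.1, 21.2 and 22.3 TPM on day 8 (log2 fold change to day 8 -2.37, SE 0.17, adjusted p = 4.44e-11).

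Between days 6 and 8 of E14Tg2a, 8 of the 10 genes fell and 1 rose, beside 9.30% and 16.4% of all genes, with a median log2 fold change of -1.29. In each of the clones, 2 fell (*Fgf4* and *Etv5*) and 1 rose (*Fgfr2*) over the same interval, beside 4.40% and 11.6% of all genes in ΔK9.1 and 4.49% and 9.12% in ΔK9.2. With the replicate block *Spry4* fell in both clones as well (adjusted p = 0.00506 and 0.00536). When each of the 5 libraries was left out in turn, the fall of *Spry4* in E14Tg2a and the rise of *Fgfr2* in either clone each lost the call with 4 of them (all but E14Tg2a replicate 1, ΔK9.1 replicate 3 and ΔK9.2 replicate 1 of day 8). Those of *Fgf4* and *Etv5* lost it without day 6 replicate 3 in ΔK9.1 (adjusted p = 0.0905 and 0.0946) and without day 6 replicate 2 in ΔK9.2 (0.120 and 0.0958). When the lines' changes from day 6 to day 8 were compared with each other, an analysis added after the data were seen, only *Dusp6* passed, beside 0.196% of all genes in either direction (difference 1.45, SE 0.28, adjusted p = 0.0178), with *Fgf8* at 3.13 (SE 0.77, adjusted p = 0.0685) and *Fgf17* at 2.14 (SE 0.51, adjusted p = 0.0638). For the others a different course between these days was therefore not shown.

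In undifferentiated cells the clones had less of 2 genes, *Fgf17* and *Spry2*, and more of none, beside 1.91% of 14504 genes that were lower and 3.81% that were higher. *Fgf17* was at 11.8, 12.1 and 12.6 TPM in ΔK9.1 and 9.73, 17.9 and 14.5 TPM in ΔK9.2, and every clone library lay below the 3 E14Tg2a libraries given above, as was so for 2 of the 10 genes, the other being *Dusp6* (background 2.75%, and 5.17% for the reverse). The log2 fold change of the mean of both clones was -0.77 (SE 0.15, adjusted p = 0.0251). *Spry2*, at 28.6, 27.9 and 21.97 TPM in ΔK9.1 and 49.3, 43.5 and 35.6 TPM in ΔK9.2, was lower by 0.62 (SE 0.12, adjusted p = 0.0224).

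Both calls rested on few libraries. That of *Fgf17* was lost without E14Tg2a replicate 2 (adjusted p = 0.112) or 3 (0.0898) and without ΔK9.1 replicate 1 (0.0527) or 2 (0.0616), and that of *Spry2* without E14Tg2a replicate 2 (0.104) or 3 (0.0644) and without ΔK9.2 replicate 2 (0.0516). With the spread of all 33 libraries neither passed (adjusted p = 0.203 and 0.0528).

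Taken singly on day 0, ΔK9.1 had 4 of the 10 genes lower (*Fgf17*, *Spry2*, *Dusp6* and *Etv4*) and 0 higher by limma, beside 5.36% and 10.1% of all genes, and at an unadjusted p under 0.05 it had 2 higher, beside 20.4%. ΔK9.2 had 0 in either direction by limma, beside 0.0758% lower and 0.00689% higher of all genes, and at an unadjusted p under 0.05 it had 1 lower and 0 higher, beside 3.31% and 6.17%. Compared directly, 1 of the 10 genes was lower in ΔK9.1 than in ΔK9.2, *Spry2* (-0.69, SE 0.14, adjusted p = 0.044), beside 0.903% of all genes. *Dusp6*, with every clone library (18.9, 21.8 and 16.5 TPM, and 26.7, 25.8 and 19.9 TPM) below every E14Tg2a library, did not pass for the mean of both clones (-0.53, SE 0.14, adjusted p = 0.0603). It passed with a minimum of 5 TPM (adjusted p = 0.0478), after rescaling by median ratios (-0.59, 0.0299) and without E14Tg2a replicate 1 (-0.61, 0.0459). With the replicate block it passed as well (adjusted p = 0.0112), and so did *Spry4* (-0.37, adjusted p = 0.0266). In ΔK9.1 alone the block added *Fgf4* (0.23, adjusted p = 0.0421), *Spry4* (-0.55, adjusted p = 0.00739) and *Etv5* (-0.17, adjusted p = 0.0349). Of its 4 calls, only that of *Spry2* held whichever of the 6 libraries was left out, and with the spread of all 33 libraries those of *Fgf17* (adjusted p = 0.156) and *Etv4* (0.155) were lost.

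*Fgfr2* showed the reverse order on day 0, at 7.23, 8.29 and 5.54 TPM in ΔK9.1 and 4.199, 4.96 and 5.43 TPM in ΔK9.2, but E14Tg2a replicate 1 lay among these values and the difference did not pass (0.73, SE 0.33, adjusted p = 0.218). Without the 2 day 0 libraries with extra-embryonic endoderm markers it was 1.31 (adjusted p = 0.00761).

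*Fgf17* lies at chr14:70636203-70642268 (mm10), inside a segment of chromosome 14, from 50 to 80 Mb, whose genes had a median log2 fold change below 0 in the clones on each of the 4 days. On day 0 the 152 other genes of the segment with a mean of at least 5 TPM had a median log2 fold change of -0.60 and 145 were below 0, beside a median of 0.07 over 9949 genes elsewhere. The -0.77 of *Fgf17* lay above 33 of the 152. *Spry2*, at chr14:105891947-105896819, lies outside the segment. On day 4 *Fgf17* was at -0.06, above 136 of 142 genes with a median of -0.63, and on day 6 at -0.80, above 91 of 150 genes with a median of -0.91. The day 6 position was uncertain, above 67 of the 150 genes in ΔK9.1 and above 119 in ΔK9.2. With 1 library left out the day 6 value of *Fgf17* ran from -1.22 to -0.37. On day 8 the segment still had a median of -0.79 over 149 genes, and *Fgf17* at 1.34 was above 148 of them.

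**Figure D2:**
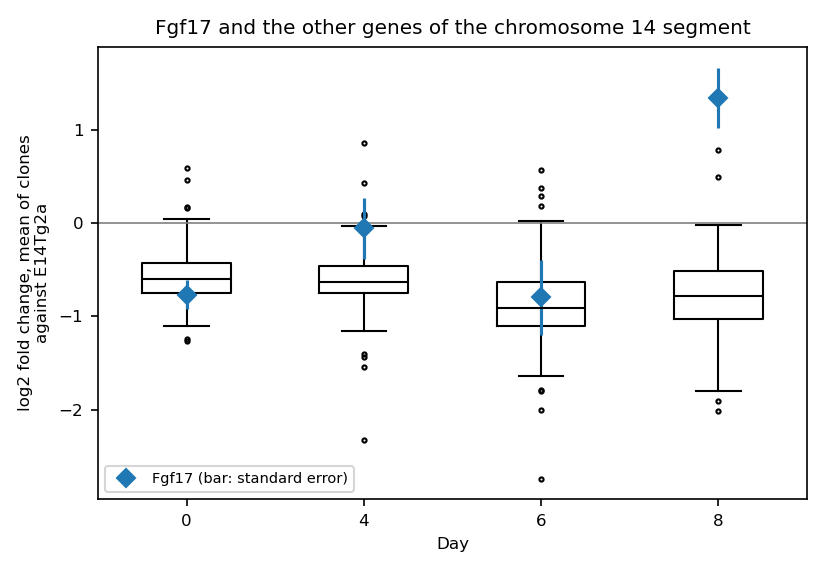
log2 fold change of the mean of both clones against E14Tg2a (vertical axis) by day. Boxes give median and quartiles of the other genes of the chromosome 14 segment with at least 5 TPM on that day, whiskers reach 1.5 times the interquartile range and dots lie beyond. Blue diamonds are Fgf17 with its standard error, at -0.77 and -0.80 on days 0 and 6, where the segment medians are -0.60 and -0.91, above 136 of the 142 genes on day 4 and above 148 of the 149 genes on day 8, with the remaining gene, Tdh, behind the diamond.

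On days 4 and 6 none of the 10 genes passed by limma in either direction, beside 0.447% of all genes higher and 2.40% lower on day 4 and 1.11% and 2.72% on day 6. At an unadjusted p under 0.05, 3 had a value below 0 on day 4 (*Fgf8*, *Spry2* and *Dusp6*) and none above, beside 11.9% and 3.55% of all genes, and 1 had a value above 0 on day 6 (*Fgf4*) and none below, beside 6.17% and 10.9%. *Dusp6* on day 4 was at 35.4, 34.0 and 23.0 TPM in ΔK9.1 and 29.6, 32.4 and 31.0 TPM in ΔK9.2, each below the E14Tg2a libraries, alone among the 10 genes that day, when 1.63% of all genes lay wholly above and 5.95% wholly below (-0.54, 95% interval -0.91 to -0.17, adjusted p = 0.116). *Fgf4* on day 6 was at 14.4 and 27.1 TPM in ΔK9.1 and 17.0 and 12.1 TPM in ΔK9.2, each above the E14Tg2a libraries (0.83, 95% interval 0.27 to 1.40, adjusted p = 0.0898), and passed when ΔK9.1 replicate 2 of that day was left out (1.05, adjusted p = 0.0223). On day 6 all 4 clone libraries lay above both E14Tg2a libraries also for *Spry4* (0.52, adjusted p = 0.458) and *Etv5* (0.36, 0.331), and below both for *Fgf17* (-0.80, 0.313) and *Fgfr1* (-0.27, 0.532), beside 12.8% of all genes above and 19.6% below. With 2 libraries per line on day 6, *Fgf8* could have differed by anything from -2.03 to 0.42 on the log2 scale. It was at 162 and 32.2 TPM in ΔK9.1 and 108 and 128 TPM in ΔK9.2 that day. With 1 library left out the difference of *Fgf8* ran from -1.38 to -0.23.

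On day 8 the clones had more of 7 of the 10 genes, namely *Fgf4*, *Fgf8*, *Fgf17*, *Spry4*, *Dusp6*, *Etv4* and *Etv5*, and less of 1, *Fgfr2*, beside 7.52% of all genes that were higher and 12.2% that were lower. The median log2 fold change was 0.95 over the 10 genes and -0.0035 over all genes. With a log2 fold change past 1 as well, 4 were higher (*Fgf8*, *Fgf17*, *Dusp6* and *Etv4*) and none lower, beside 0.826% and 3.42% of all genes. Every clone library lay above every E14Tg2a library for 3 genes (*Fgf4*, *Dusp6* and *Etv5*) and below for 1 (*Fgfr2*), beside 5.44% and 7.99% of all genes.

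**Figure D3:**
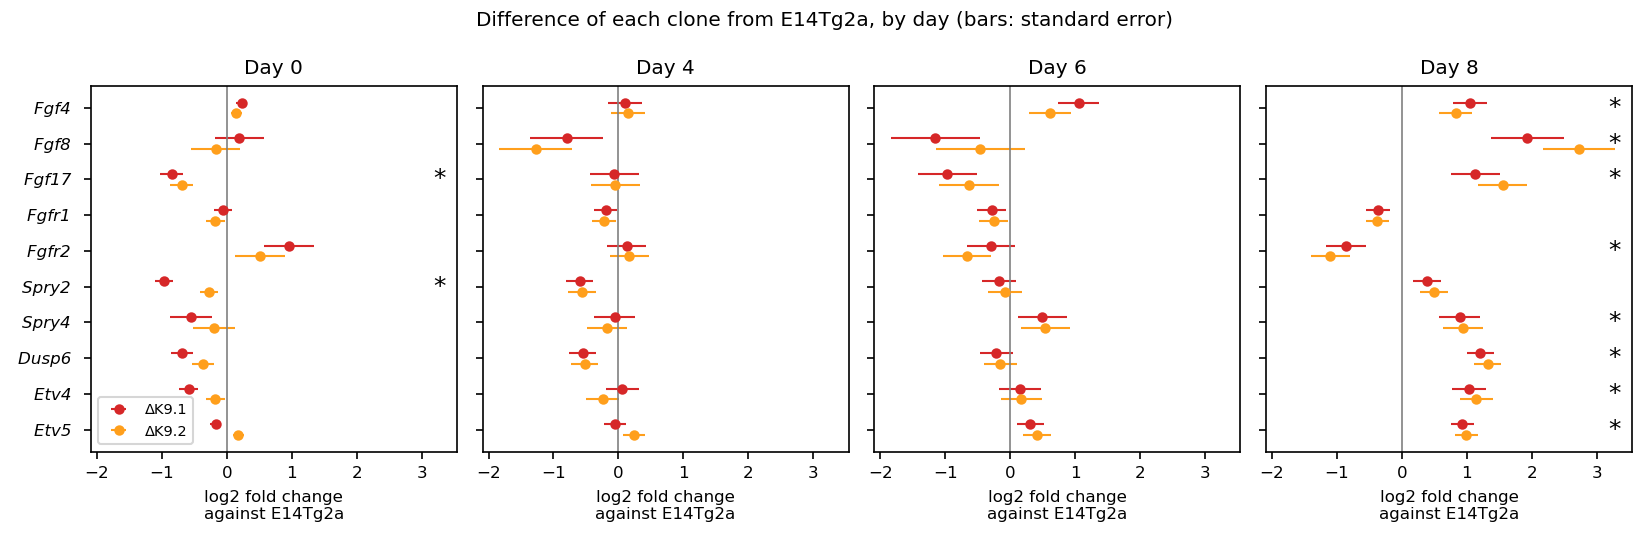
log2 fold change of ΔK9.1 (red) and ΔK9.2 (orange) against E14Tg2a with standard errors, 1 panel per day. An asterisk marks genes that passed for the mean of both clones, 2 on day 0, none on days 4 and 6 and 8 on day 8.

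Among ligands, the day 8 level of *Fgf4* was 3.89, 5.25 and 10.8 TPM in ΔK9.1 and 4.42, 4.75 and 6.27 TPM in ΔK9.2, 5.89 ± 2.53 TPM (SD, n = 6) against 2.48 ± 0.69 TPM (SD, n = 3) in E14Tg2a, a log2 fold change of 0.94 (SE 0.22, adjusted p = 0.00424). *Fgf8* was at 112, 46.5 and 119.9 TPM in ΔK9.1 and 176, 112 and 170.1 TPM in ΔK9.2, with 1 ΔK9.1 library inside the E14Tg2a range. Its difference was the largest of the 10 genes, 2.33 (SE 0.48, adjusted p = 0.0014).

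*Fgf17* was at 4.90, 1.53 and 6.87 TPM in ΔK9.1 and 7.10, 4.37 and 5.47 TPM in ΔK9.2 on day 8, with the same ΔK9.1 library, replicate 2, inside the E14Tg2a range (1.34, SE 0.33, adjusted p = 0.00489). The primitive streak gene *T* was likewise higher in the clones on day 8 (2.70, SE 0.70, adjusted p = 0.00758). In all, 3 of 8 primitive streak and mesoderm markers were higher and none lower, beside 7.52% and 12.2% of all genes. Those 8 markers summed to 709 to 750 TPM in the E14Tg2a libraries, while the sums ran from 177 to 643 TPM in ΔK9.1 and from 350 to 751 TPM in ΔK9.2. Most of the E14Tg2a sum was *Hand1*, with a mean of 582 TPM, against means of 257 (ΔK9.1) and 316 TPM (ΔK9.2). For *T*, *Mixl1*, *Mesp1*, *Eomes* and *Tbx6* the mean of each clone lay above that of E14Tg2a. *T* had a mean of 16.8 TPM in E14Tg2a, 46.0 TPM (ΔK9.1) and 97.8 TPM (ΔK9.2). The mean of *Kdr* lay below that of E14Tg2a in each clone, and that of *Twist1* only in ΔK9.2. The part of the 8 markers in the levels of *Fgf8* and *Fgf17* was not tested.

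*Fgfr2* was the reverse case. It reached 19.1, 31.3 and 20.8 TPM in ΔK9.1 and 17.2, 23.3 and 18.3 TPM in ΔK9.2, all under the lowest E14Tg2a library, a mean of 21.7 ± 5.19 TPM (SD, n = 6) against 42.9 ± 1.10 TPM (SD, n = 3). The log2 fold change was -0.98 (SE 0.26, adjusted p = 0.0101). *Fgfr1*, at 83.9, 92.0 and 67.3 TPM and 76.0, 81.7 and 81.9 TPM, did not pass (-0.37, 95% interval -0.70 to -0.05, adjusted p = 0.0973), and passed with the replicate block (adjusted p = 0.0272). The extra-embryonic endoderm markers, a cell type that carries *Fgfr2*, were lower as well, with 6 of 10 markers lower and none higher, beside 12.2% and 7.52% of all genes. They summed to 381 to 502 TPM in the E14Tg2a libraries, while the sums ran from 46.4 to 183 TPM in ΔK9.1 and from 75.1 to 95.4 TPM in ΔK9.2, and no marker was at 0 in all libraries of a line on day 8. On day 4 also 6 of the 10 markers were lower in the clones and none higher, beside 2.40% and 0.447% of all genes. *Fgfr2* then had a mean of 12.1 TPM in the clones and 11.2 TPM in E14Tg2a. The part of these markers in the difference of *Fgfr2* was not tested.

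Of the feedback inhibitors, *Dusp6* had the smallest p of the 10 genes. It was at 62.3, 54.6 and 65.9 TPM in ΔK9.1 and 87.1, 50.04 and 65.4 TPM in ΔK9.2, 64.2 ± 12.8 TPM (SD, n = 6) against 26.9 ± 10.3 TPM (SD, n = 3), a log2 fold change of 1.27 (SE 0.18, adjusted p = 3.15e-05). *Spry4* was at 9.26, 7.12 and 6.84 TPM and 12.8, 7.04 and 5.55 TPM, overlapping E14Tg2a replicate 1 (0.91, SE 0.27, adjusted p = 0.0178). *Spry2*, at 32.3, 28.6 and 37.8 TPM and 37.5, 27.8 and 41.8 TPM, did not pass (0.44, 95% interval 0.07 to 0.82, adjusted p = 0.0911).

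Both ETS factors were higher. *Etv5* was at 58.9, 47.6 and 47.0 TPM in ΔK9.1 and 65.3, 51.9 and 44.2 TPM in ΔK9.2, all above the highest E14Tg2a library, a log2 fold change of 0.96 (SE 0.15, adjusted p = 0.000101). *Etv4* was at 30.4, 32.99 and 20.1 TPM and 39.7, 31.0 and 20.8 TPM, with replicate 3 of each clone under E14Tg2a replicate 1 (1.09, SE 0.22, adjusted p = 0.00127). Of 8 markers of undifferentiated ES cells, 5 were higher on day 8 and 1 lower, beside 7.52% and 12.2% of all genes. The 8 summed to 173 to 334 TPM in the E14Tg2a libraries, while the sums ran from 369.9 to 890.3 TPM in ΔK9.1 and from 429 to 1003 TPM in ΔK9.2. Their part in the levels of *Fgf4*, *Etv4* and *Etv5* was not tested.

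Taken singly on day 8, ΔK9.1 had 5 genes higher and none lower (background 4.65% and 6.68%), and ΔK9.2 had 7 higher and 1 lower (5.31% and 11.3%), both set against the same E14Tg2a libraries. In ΔK9.1 *Fgf17* (1.13, adjusted p = 0.0512) and *Spry4* (0.89, adjusted p = 0.0634) did not pass, but did so with the replicate block (adjusted p = 0.0482 and 0.00277), with a pseudocount of 0.1 (0.0337 and 0.0460) and without E14Tg2a replicate 1 (0.0155 and 0.00914). *Fgf17* also passed with a minimum of 5 TPM (adjusted p = 0.0444) and without ΔK9.1 replicate 2 (0.00509), and *Spry4* after rescaling by median ratios (0.0440). *Fgfr2* in ΔK9.1 was at -0.86 (adjusted p = 0.0684) and passed without ΔK9.1 replicate 2 (-1.07, adjusted p = 0.0345). Whichever of the 6 libraries was left out, *Dusp6* and *Etv5* passed in each clone and *Fgf8* and *Etv4* in ΔK9.2, while each of the other calls of single clones was lost without at least 1 library. All of these calls of single clones were lost when the spread was taken from the 9 libraries of day 8 alone, with an adjusted p from 0.0503 (*Fgfr2* in ΔK9.2) to 0.216 (*Fgf8* in ΔK9.1), and of 0.103 and 0.0725 for *Dusp6* and 0.123 and 0.0948 for *Etv5* in ΔK9.1 and ΔK9.2. Over all 16336 genes the calls in either direction went from 1851 to 95 in ΔK9.1 and from 2707 to 139 in ΔK9.2. Compared directly, ΔK9.1 and ΔK9.2 differed in 0 of the 10 genes by limma on each of days 4, 6 and 8, beside 0, 0.00612% and 0 of all genes. The count was 0 at an unadjusted p under 0.05 as well, beside 5.10%, 4.24% and 6.06% of all genes. The largest of these differences on day 8, that of *Fgf8*, was -0.80 on the log2 scale.

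The day 8 calls depended on how the spread was estimated. With the 9 libraries of day 8 alone, 1 of the 7 genes, *Dusp6*, remained higher, and the adjusted p of the other 6 lay between 0.0552 (*Etv5*) and 0.148 (*Spry4*), while all fold changes were as given. Over all 16336 genes the calls in either direction went from 3217 to 415 in that fit. Among the E14Tg2a libraries of day 8, replicate 2 was lowest for *Fgf8*, *Fgf17*, *Spry2*, *Spry4*, *Dusp6* and *Etv5*. Without it, *Fgf17* (adjusted p = 0.0672), *Spry4* (0.182) and *Fgfr2* (0.0541) no longer passed and *Fgf8* was at 1.53 (adjusted p = 0.0468). *Spry4* also no longer passed without E14Tg2a replicate 3 (adjusted p = 0.0927) or ΔK9.2 replicate 1 (0.0513), while *Spry2* passed without E14Tg2a replicate 3 (0.62, adjusted p = 0.0405) or ΔK9.2 replicate 2 (0.52, adjusted p = 0.0466).

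Within each clone 4 genes rose from day 0 to day 8 and 5 fell, beside 25.1% and 24.8% of all genes in ΔK9.1 and 24.6% and 26.7% in ΔK9.2. To ask whether the lines changed by different amounts, the change from day 0 to day 8 was compared between clones and E14Tg2a in 1 model. It differed for 8 of the 10 genes, 7 with a positive difference and 1, *Fgfr2*, with a negative difference, beside 1.35% and 4.95% of all genes. *Dusp6* had risen from day 0 in both clones, by 1.63 in ΔK9.1 (adjusted p = 4.75e-07) and 1.42 in ΔK9.2 (adjusted p = 2.91e-06), where E14Tg2a had -0.27, and the difference of the changes was 1.79 (SE 0.25, adjusted p = 0.000449). *Fgfr2* had risen by 1.61 and 1.81 in the clones and by 3.42 in E14Tg2a, a difference of -1.71 (SE 0.37, adjusted p = 0.00921).

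Another 4 genes had a lower log2 fold change in E14Tg2a than in the clones. *Fgf17* changed by -1.43 in ΔK9.1 and -1.16 in ΔK9.2, against -3.41 in E14Tg2a (difference 2.11, SE 0.46, adjusted p = 0.00936). *Etv4* changed by -0.78 and -1.08 against -2.40 (difference 1.47, SE 0.32, adjusted p = 0.00872), and *Etv5* by -1.27 and -1.56 against -2.37 (difference 0.96, SE 0.21, adjusted p = 0.0111). *Spry2* changed by 0.32 and -0.26, neither past the threshold, against -1.03 (difference 1.06, SE 0.26, adjusted p = 0.0157).

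*Fgf8* (difference 2.32, SE 0.69) and *Spry4* (1.28, SE 0.38) passed narrowly, each with an adjusted p of 0.0426. *Fgf8* had changed by 5.43 in ΔK9.1 and 6.59 in ΔK9.2 against 3.69 in E14Tg2a, and *Spry4* by -1.62 and -1.92 against -3.05. Both lost the call without the 2 day 0 libraries with extra-embryonic endoderm markers (adjusted p = 0.152 and 0.0638). For *Fgf4* (0.75, SE 0.32, adjusted p = 0.155) and *Fgfr1* (-0.26, SE 0.22, adjusted p = 0.543) a difference of the changes was not shown. Without E14Tg2a replicate 2 of day 8 the positive differences that passed were 2 in place of 7, those of *Dusp6* and *Etv4*, and *Fgf8* was at 1.52 (adjusted p = 0.227), *Fgf17* at 1.89 (0.0510), *Spry2* at 0.94 (0.0793), *Spry4* at 1.06 (0.188) and *Etv5* at 0.81 (0.0624). Of the 18 libraries left out in turn, *Fgf8* lost the call with 13 and *Spry4* with 10. Each clone on its own gave 5 positive differences and 1 negative in ΔK9.1 (background 1.13% and 3.35%) and 3 and 1 in ΔK9.2 (0.416% and 1.98%), and the replicate block added *Spry4* in ΔK9.1 (adjusted p = 0.00393) and *Spry4*, *Etv4* and *Etv5* in ΔK9.2 (0.0203, 0.0203 and 0.0115). Up to days 4 and 6 the changes differed for 0 genes by limma, beside 0.0122% of all genes with a positive and 0.00612% with a negative difference on day 4 and 0.0612% and 0.245% on day 6. At an unadjusted p under 0.05 there were 0 on day 4, beside 0.986% and 7.71%, and 1 in each direction on day 6, beside 2.34% and 7.94%.

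**Figure D4:**
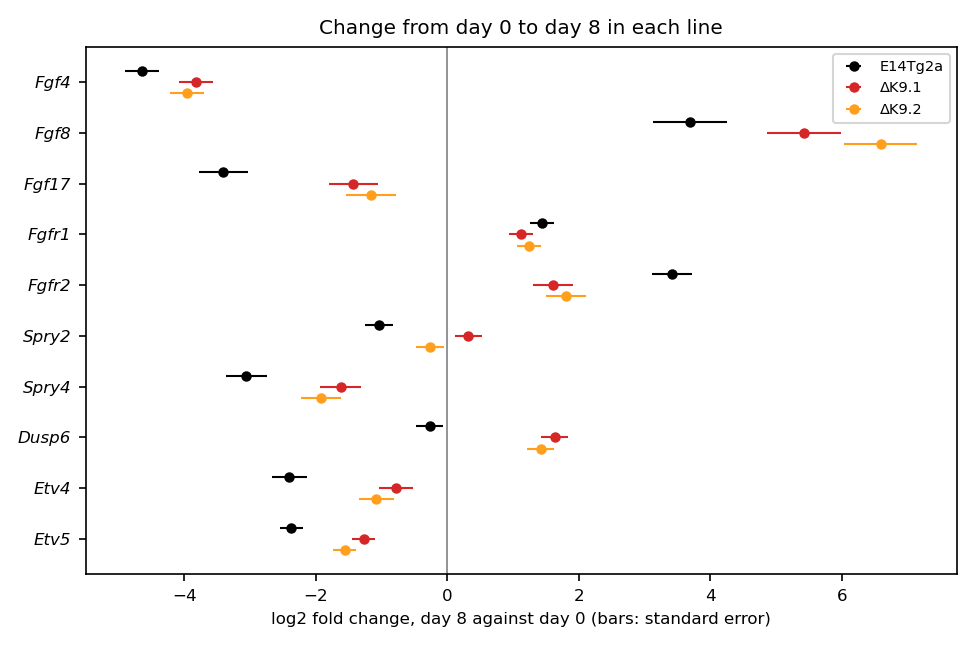
log2 fold change from day 0 to day 8 within each line, with standard errors, for E14Tg2a (black), ΔK9.1 (red) and ΔK9.2 (orange). For Dusp6 the clones lie at 1.63 and 1.42 and E14Tg2a at -0.27, and for Fgfr2 the clones lie at 1.61 and 1.81 and E14Tg2a at 3.42.

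A wider list of 85 genes of the pathway, other than the 10, was written by role, and 72 of them are in the table. On day 8, 9 of the 72 were higher in the clones and 5 lower, beside 7.52% and 12.2% of all genes, with a median log2 fold change of -0.03. Negative regulators other than the 10 genes had 6 of 16 higher and 1 lower. Of these, *Il17rd*, a membrane inhibitor of FGF receptor signalling, was higher by 1.15 (SE 0.21, adjusted p = 0.000431), and the nuclear ERK phosphatases *Dusp4* and *Dusp5* by 0.78 (SE 0.18, adjusted p = 0.00342) and 0.81 (SE 0.23, adjusted p = 0.0131). Of the SPRED proteins, which hold RAS in check, *Spred3* was at 0.83 (SE 0.25, adjusted p = 0.0203) and *Spred1* at 0.60 (SE 0.16, adjusted p = 0.0101), while *Spred2* did not pass. *Spry1* was higher by 0.52 (SE 0.17, adjusted p = 0.0272). The 1 that was lower was *Lztr1*, an adaptor through which RAS proteins are marked for degradation (-0.45, SE 0.11, adjusted p = 0.00737).

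Receptors and cofactors in the wider list had none of 11 higher and 4 lower, the receptors *Fgfr3* (-1.55, SE 0.33, adjusted p = 0.00181) and *Fgfr4* (-1.23, SE 0.28, adjusted p = 0.0028), the transmembrane protein *Flrt3* (-1.75, SE 0.45, adjusted p = 0.0069) and the heparan sulfate proteoglycan *Sdc2* (-0.63, SE 0.17, adjusted p = 0.00969). *Fgf5*, the ligand of the formative and primed epiblast, was the 1 ligand of 9 that was higher (2.10, SE 0.57, adjusted p = 0.0101). Of 17 other ERK-responsive transcription factors only *Egr2* passed (0.77, SE 0.21, adjusted p = 0.0105). These counts by role stand beside 7.52% of all genes that were higher on day 8 and 12.2% that were lower.

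**Figure D5:**
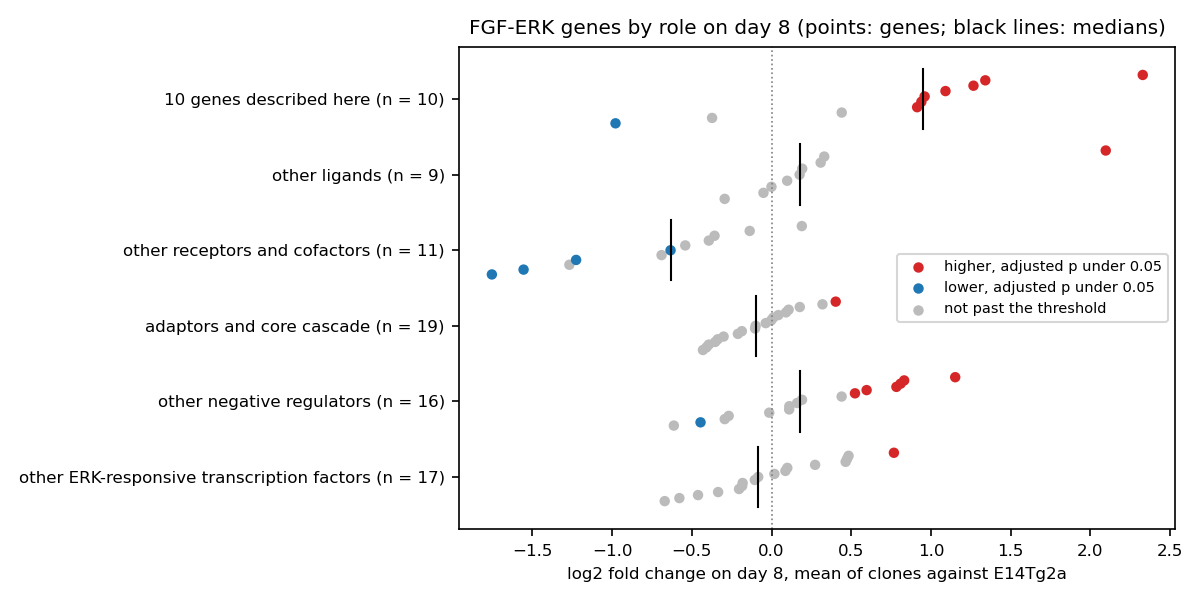
log2 fold change on day 8, mean of both clones against E14Tg2a, for the 10 genes and for 72 other pathway genes by role. Points are genes, coloured where they passed (red higher, blue lower), and black lines are medians, 0.95 for the 10 genes, 0.18 for other negative regulators and -0.63 for other receptors and cofactors.

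On the earlier days the wider list had 1 of 67 higher and 2 lower on day 0 (*Gpc3* higher, *Myc* and *Junb* lower), beside 3.81% and 1.91% of all genes. It had 1 of 72 higher and 6 lower on day 4, beside 0.447% and 2.40%, and 0 higher and 5 lower on day 6 by limma, beside 1.11% and 2.72%. The 5 lower on day 6 came from the group of other ERK-responsive factors, *Phlda1*, *Jun*, *Ets1*, *Junb* and *Egr3*, of which *Egr3* lies in the chromosome 14 segment. At an unadjusted p under 0.05, 18 of the 72 differed on day 6 in either direction, beside 17.0% of all genes.

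The order of the 12 group means shows where each gene was most abundant. *Fgf4* was highest on day 0 in all lines (84.7 to 99.4 TPM) and lowest in E14Tg2a on day 8 (2.48 TPM), and *Fgfr1* and *Fgfr2* were highest in E14Tg2a on day 8 (104.5 and 42.9 TPM). *Dusp6* had its 5 highest means in the 3 lines on day 6 and the clones on day 8 (60.9 to 78.1 TPM), neighbours that did not differ by more than the residual SD, and the next, E14Tg2a on day 4 (45.0 TPM), was lower by more than that. The 5 highest means of *Fgf8* were the same groups (92.9 to 163 TPM), again with no gap beyond the SD among them. Of the 11 gaps between neighbours per gene, between 1 (*Spry2*) and 6 (*Fgf4*) were larger than the residual SD.

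Across the 12 group means the gene with the profile most like that of *Fgf4* was *Chchd10* (Pearson r 0.995), of *Fgf8* *Adgrl2* (0.989), of *Fgf17* *Gbx2* (0.963), of *Fgfr1* *Zc4h2* (0.993), of *Fgfr2* *Camk2g* (0.979), of *Spry2* *Exosc7* (0.969), of *Spry4* *Mettl16* (0.981), of *Etv4* *Psat1* (0.981) and of *Etv5* *Gart* (0.986), out of 12079 genes. *Dusp6* was most like *Cntnap2* (0.963), with *Il17rd* at rank 3 (0.954). Among the 10 genes *Dusp6* and *Fgf8* had r 0.898, *Fgf17* and *Etv4* 0.934, *Fgf4* and *Etv5* 0.940, and *Fgf4* and *Fgfr1* -0.988. These values describe 12 means that share days, lines and libraries.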

How the data were processed

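RNA from 33 libraries was measured in 1 table of 16336 genes. The authors prepared stranded poly-A libraries, aligned reads to mm10 with STAR and made the deposited TPM values with RSEM, normalized within each library, and versions and the annotation are not given in the sources used here. Another 22 columns hold the log2 fold changes and FDR of the authors' own comparisons and were not used. Library totals of the TPM lay between 994284 and 998266, which keeps no read number, so the depth is unknown and the precision was taken from the replicates (21 residual degrees of freedom). The study's supplement describes independent assays run in parallel. Separate thaws or passages are not given in the sources used here, so p-values measure the spread between these libraries, which may be partly technical.

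The 10 genes, the wider pathway list, the marker lists and the chromosome 14 segment were chosen with earlier results of these data known. All 10 genes are named or counted in every comparison, and from the other lists genes that passed on day 8 are named as examples, apart from a result that is not reported here. Values were taken as log2(TPM + 1) and fitted per gene with limma 3.58.1 in R 4.3.3 (moderated variance with a trend, two-sided), and p-values were adjusted by Benjamini-Hochberg over all genes. Later days and changes with time came from 1 fit of all 33 libraries. Lines on day 0 were compared in the 9 libraries of that day, over 14504 genes that reached 1 TPM on average in some group. Likeness was searched among genes that reached 5 TPM on average. The procedure was tested on simulated data with independent noise in each library. That setting has no replicate pairs and no spread between clones, so it does not cover them. Figures were drawn with Python 3.11.15 and matplotlib 3.10.9.

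The series' design states parallel culture, and libraries of 1 day that share a replicate number were taken as grown in parallel. The fits above do not use these pairs, and the replicate block, an alternative, does. Deviations from the group means had a median correlation of 0.222 between lines when day and number were shared (33 pairs, lowest -0.0129, 31 above 0.1) and of -0.127 when numbers differed (60 pairs). Within a group these deviations cancel out, so a positive value for shared numbers brings a negative one for the rest. The medians are therefore not independent, and neither are the pairs. The other alternatives were another pseudocount (0.1), another minimum (5 TPM, or none on day 0), rescaling by median ratios, fits of fewer or more libraries, and each library left out in turn. Leaving out the 2 day 0 libraries with extra-embryonic endoderm markers, and taking day 6 as the start, were added after seeing the data. Gene positions come from RefSeq GRCm38.p6, in which 15137 genes (92.7%) were found.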

Additional observations from a re-analysis of the deposited data

Results flagged for a closer look

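For 8 of the 10 genes a limma test of the difference itself set the lines apart in their change from day 0 to day 8. For the mean of both clones minus E14Tg2a the log2 difference was 2.32 for *Fgf8*, 2.11 for *Fgf17*, 1.06 for *Spry2*, 1.28 for *Spry4*, 1.79 for *Dusp6*, 1.47 for *Etv4*, 0.96 for *Etv5* and -1.71 for *Fgfr2*. In ΔK9.1 alone it was 1.98 for *Fgf17* (adjusted p = 0.0336), 1.35 for *Spry2* (0.0140), 1.90 for *Dusp6* (0.00134), 1.62 for *Etv4* (0.0160), 1.10 for *Etv5* (0.0159) and -1.81 for *Fgfr2* (0.0192). In ΔK9.2 alone it was 2.90 for *Fgf8* (adjusted p = 0.0496), 2.24 for *Fgf17* (0.0299), 1.69 for *Dusp6* (0.00453) and -1.61 for *Fgfr2* (0.0460). Both clones were set against the same E14Tg2a libraries. Whether a gene that passed in 1 clone only differs between the clones in its change was not tested.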

How the results depend on the processing

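Most counts of genes that passed moved by less than 1.5 times under the other settings. With the replicate block, which follows the pairing of numbers, 4 of the 10 genes were lower on day 0 and 2 on day 8, and 2 rose from day 6 to day 8 in E14Tg2a. Calls over all 14504 genes in either direction went from 829 to 2702 on day 0 with the block. On day 8 they went from 3217 to 4088 of 16336 genes, and from day 6 to day 8 in E14Tg2a from 4196 to 5086. Other calls changed by the block are given beside their results, apart from *Etv5* from day 0 to day 6 in ΔK9.1 (-0.34, adjusted p = 0.0474), *Spry4* from day 4 to day 6 in ΔK9.2 (0.68, adjusted p = 0.0158) and *Etv5* between the clones on day 0 (-0.35, adjusted p = 0.00914), and it changed no other call. All 33 libraries in the day 0 fit left 0 genes lower on day 0, day 8 libraries alone left 1 higher on day 8, and without the 2 day 0 libraries with endoderm markers 1 was higher on day 0 (*Fgfr2*). Over all genes these settings called 652 of 16336, 415 of 16336 and 1317 of 14318 in either direction. With day 6 as the start, 1 positive and 0 negative differences between lines passed. A pseudocount of 0.1 ended 3 calls, those of *Fgf8* in the difference of the change to day 8 (2.04, adjusted p = 0.162) and in ΔK9.1 on day 8 (2.00, 0.0676) and of *Fgfr2* from day 6 to day 8 in ΔK9.1 (1.08, 0.0634). Rescaling by median ratios ended that of *Fgfr2* too (0.91, adjusted p = 0.0597) and that of *Spry2* from day 0 to day 4 in E14Tg2a (-0.53, 0.0589), where *Dusp6* then passed (0.59, 0.0301). Fits of fewer libraries ended 23 calls, among them, beside those of day 8, *Fgf8* and *Spry4* in the difference of the change to day 8 (adjusted p = 0.0870 and 0.131), *Spry2* from day 0 to day 4 in E14Tg2a (0.0861) and *Fgfr2* from day 6 to day 8 in ΔK9.1 (0.0596), and *Fgf4* from day 0 to day 4 in E14Tg2a then passed (-0.60, 0.0313). Other calls that these settings gained are given beside their results. Rescaling also turned 2 small values without a call, *Etv5* on day 0 to -0.061 and *Fgf17* on day 4 to 0.014.

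With 1 library left out, the genes higher in the clones numbered 0 to 1 on day 0 and 0 to 1 on day 6, and those lower 0 to 3 on day 0, 0 to 1 on day 4 and 0 to 1 on day 8. Positive differences of the change to day 8 numbered 2 to 7, and negative ones of the change to day 6 numbered 0 to 1. The 9 values that turned their sign had no call. Clones against E14Tg2a, these were *Fgf8* (-0.30 to 0.52) and *Etv5* (-0.059 to 0.056) on day 0, *Fgf17* (-0.34 to 0.25), *Fgfr1* (-0.50 to 0.0072), *Fgfr2* (-0.086 to 0.39) and *Etv4* (-0.24 to 0.039) on day 4, and *Spry2* (-0.27 to 0.023) and *Etv4* (-0.00038 to 0.32) on day 6. The last was *Fgfr1* from day 0 to day 4 in E14Tg2a (-0.024 to 0.48). Calls gained from day 0 to day 4 in E14Tg2a were *Dusp6* (0.66, adjusted p = 0.0408, without day 0 replicate 2) and *Fgfr1* (0.48, 0.0328, without day 4 replicate 1), and the call gained to day 8 is given beside *Dusp6*. From day 0 to day 8 the call of *Etv4* in ΔK9.1 was lost without replicate 3 of day 0 or day 8 (adjusted p = 0.0558 and 0.0932) and that of *Fgf17* in ΔK9.2 without replicate 2 of either day (0.0608 and 0.0530). On day 4 *Spry2* was lower in the clones without E14Tg2a replicate 1 (-0.78, adjusted p = 0.0292). The cause of these changes was not tested.

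The TPM give no read number, so counting error of low genes such as *Fgf8* on day 0 is unknown. Day 6 has 2 libraries per line, and each deletion line is 1 clone.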
